A study of Homo sapiens with 40 samples.

Results

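Kyse30 spheroids kept for 72 h with EGF, from which the cells sorted as non-invasive were taken, were compared with Kyse30 spheroids kept for the same time in serum-free medium. The comparison was chosen by its column names in the read-count table, 4 non-invasive and 4 serum-free libraries, so 8 of the 40 samples of the series. The series asks how the EGF receptor drives local invasion of squamous carcinoma cells and how the cells respond to cetuximab, an antibody against that receptor. Kyse30 is a human oesophageal squamous cell carcinoma line. The cells carried Dendra2, a green fluorescent protein that light turns red, their genotype is labelled wildtype, and spheroids seeded from 10000 cells were embedded in type I collagen. The treated group received 9 nM EGF, whereas the serum-free group received no EGF, cetuximab or MEK inhibitor. Levels in 3 more Kyse30 groups of 4 are quoted beside them, the sorted invasive cells from EGF-treated spheroids and unselected spheroids given EGF with 10 ug/mL cetuximab or with 100 nM of the MEK inhibitor AZD6244. FaDu, a hypopharyngeal squamous line with the same label set and 8000 cells per spheroid, gave a second pair of non-invasive and serum-free groups. At the end, 10 to 12 invasive areas per spheroid in 40 spheroids per treatment were photoconverted, the gel was digested with collagenase for 15 min and over 1000 cells per group were sorted. The serum-free samples are labelled unselected and hold all cells of the spheroid, so EGF and the removal of the invasive cells change together here and cannot be told apart. The titles call the treated samples photoconverted non-invasive cells, while a separate label on selection names photoconverted invasive cells for them too, so their identity rests on the titles, descriptions and column names. Whether the 4 replicates came from separate cultures is not labelled, and p-values therefore reflect library-to-library spread that may be technical in part.

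The EGF receptor is a tyrosine kinase on the cell surface that, once bound by EGF or a related ligand, signals through RAS, RAF, MEK and ERK to the nucleus. ERK activity induces immediate early transcription factors, further receptor ligands, and the phosphatases and adaptors that shut the pathway down again. In squamous epithelium the same receptor supports proliferation and migration and opposes terminal differentiation, and squamous carcinomas often carry many copies of it.

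The 8 libraries held 2538447 to 4534339 counts and 11635 to 12376 genes with at least 1 count. Non-invasive replicates 1 and 3 stood apart from replicates 2 and 4. The nuclear RNA MALAT1 took 6.27% and 9.63% of their counts, 1.68% and 1.91% in replicates 2 and 4, and 1.01% to 1.27% in the serum-free libraries. Mitochondrial transcripts took 17.4% and 19.3% in replicates 1 and 3, 8.22% and 8.95% in replicates 2 and 4, and 19.7% to 23.8% in the serum-free group. Replicate 1 alone had a high summed level of the listed interferon-induced genes, 8916 CPM (counts scaled to a common library total) against 1865, 1695 and 1886 CPM in replicates 2, 3 and 4 and 1379 to 1520 CPM in the serum-free libraries. With replicates 2 and 4 alone 4.36% of all genes tested were higher and 2.34% lower than in serum-free spheroids, and with replicates 1 and 3 alone 4.47% and 1.90%. For the gene lists described, the counts of members called in these 2 fits are given where the larger is at least 3 and over 1.5 times the smaller, and the count without replicate 1 where at least 3 calls fell by over 1.5 times. Of 14 squamous epithelial markers, 9 had a mean of at least 10 CPM in the serum-free group and 11 in the non-invasive group. The basal keratin KRT5 was nearly absent, with 0, 0.643, 0 and 0.424 CPM in serum-free replicates 1 to 4 and 0 counts in all 4 non-invasive libraries, which allows up to 0.202 CPM for that group. The table lists 1 of 10 fibroblast, 1 of 10 leukocyte and 1 of 8 endothelial markers, and the others were not analysed here. The endothelial marker, the cadherin CDH5, stood at 33, 16.4, 34.6 and 22.5 CPM in the serum-free and 3.78, 3.9, 6.93 and 4.51 CPM in the non-invasive libraries. RNA from bulk samples cannot tell fewer cells of a kind from less RNA per cell.

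Non-invasive EGF-treated cells had more of the transcripts for EGF receptor ligands, the interleukin-33 receptor IL1RL1, laminin-332 and its integrins, the urokinase receptor, vimentin, sterol synthesis enzymes and glycolytic enzymes than serum-free spheroids. They had less of the mucosal keratins KRT4 and KRT13, of the xenobiotic-metabolising enzymes CYP1A1 and CYP1B1 and of the ephrin receptor EPHA7. Of 11976 genes tested with edgeR's quasi-likelihood test, 970, or 8.10%, were higher and 570, or 4.76%, were lower at an adjusted p under 0.05. The spread in this test is shared by all 20 Kyse30 libraries and rises with 1 shallow library of the invasive group. Without that library 1915 genes (15.9%) were higher and 1441 (11.9%) were lower. Scaling by size factors of the relative log expression kind moved the median gene by -0.11 log2 units and gave 813 higher and 757 lower genes, a share of higher calls of 51.8% against 63%. DESeq2 called 1133 higher and 1297 lower genes, so that 46.6% of its calls were higher and the majority turned, with a shift of -0.11 in the median gene. Levels below are CPM scaled with TMM factors, in the order of replicates 1 to 4, and changes are log2 differences with their standard errors (SE). List counts are given as members called of members tested, first over 20 libraries and then over the 19 left without the shallow one, and the median over all genes tested was 0.03.

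Of the EGF receptor family and its ligands, 5 of 12 tested members rose and 2 fell (6 and 4 over 19 libraries), with a median of 0.56. HBEGF, the heparin-binding ligand, stood at 7.33, 7.07, 11.4 and 19.9 CPM in serum-free libraries and at 71.1, 149, 83.5 and 79.6 CPM in non-invasive ones, a log2 change of 3.08 ± 0.37. Its lowest non-invasive library was above every serum-free one, and replicate 2 was the highest. AREG, amphiregulin, stood at 302, 294, 268 and 268 CPM and 577, 1168, 1757 and 1520.0 CPM, a change of 2.15 ± 0.39. EREG, epiregulin, stood at 61.6, 34.7, 56.2 and 50.4 CPM and 86.2, 271, 334 and 248 CPM, a change of 2.21 ± 0.47. For both, replicate 1 was the lowest of the treated libraries and still lay above the serum-free range. TGFA, the ligand TGF-alpha, changed by 0.96 ± 0.28, with the treated libraries between 67.6 and 88.1 CPM and the serum-free ones between 32.6 and 49.5 CPM. With EGF and cetuximab these 4 ligands had mean levels of 21.4, 425, 89.9 and 68.5 CPM, and with EGF and the MEK inhibitor 9.76, 569.8, 137 and 55.7 CPM, in the order HBEGF, AREG, EREG and TGFA. AREG and EREG varied widely there, with SDs of 244 and 61.3 CPM under cetuximab and 298 and 86.6 CPM under the MEK inhibitor. HBEGF varied less, with SDs of 4.68 and 4.22 CPM.

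The receptor itself moved the other way. EGFR stood at 3369, 3585, 3588 and 3469 CPM in serum-free and at 1792, 2571, 1991 and 2127 CPM in non-invasive libraries, a change of -0.72 ± 0.18 without overlap between the groups. ERBB2, its dimerisation partner, changed by -0.99 ± 0.31, and ERBB3 by -0.97 ± 0.39, which did not pass over 20 libraries and passed over 19 (adjusted p = 0.107 and 5.33e-05, edgeR). ERRFI1, an inhibitor that binds the active receptor, rose by 2.82 ± 0.43, from 28.6, 16.7, 20.4 and 20.8 CPM to 100.0, 189, 144 and 176 CPM. The calls of ERBB2 and TGFA were weak. ERBB2 lost its call without non-invasive replicate 1, 3 or 4 or serum-free replicate 1 or 3 (adjusted p up to 0.115, edgeR), and TGFA without non-invasive replicate 3 or 4 or serum-free replicate 1 or 4 (up to 0.087).

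**Figure D1:**
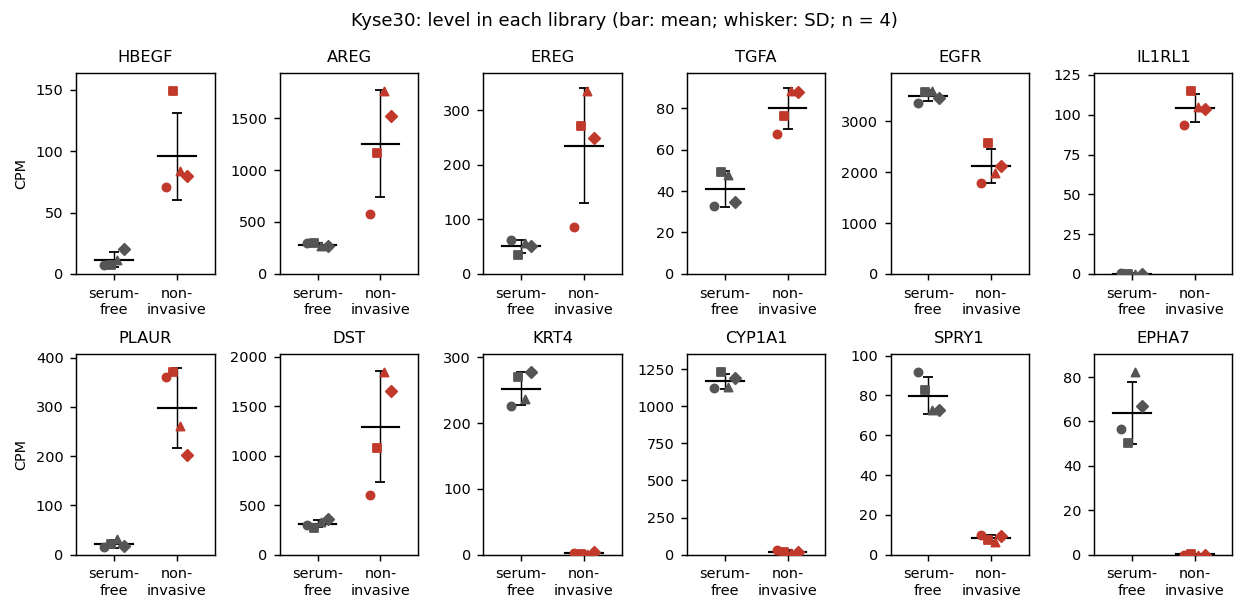
Level of 12 genes in each Kyse30 library, in CPM on linear axes that start at 0, with serum-free libraries in grey and non-invasive ones in red. Circles, squares, triangles and diamonds are replicates 1 to 4, the bar is the mean and the whisker the SD of 4 libraries; in each of the 12 panels the 2 groups do not overlap.

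Genes downstream of ERK split. Of the listed output and feedback genes 8 of 25 were higher and 3 lower (11 and 3 over 19 libraries), with a median of 0.61. The higher ones were 7 of 25 with non-invasive replicates 2 and 4 alone and 3 of 25 with replicates 1 and 3 alone. PHLDA2, a growth-restraining gene, rose by 3.03 ± 0.45, the AP-1 subunit FOSL1 by 2.43 ± 0.44 and the chromatin protein HMGA2 by 2.05 ± 0.48. FOSL1 stood at 16.9, 16.7, 9.82 and 12.3 CPM in serum-free and 81.5, 70, 80.4 and 69.2 CPM in non-invasive libraries, whereas its mean was 16.7 CPM under cetuximab and 16.8 CPM under the MEK inhibitor. SPRY1, a Sprouty feedback inhibitor, moved in the opposite direction, from 91.6, 82.6, 72.7 and 72.5 CPM to 10.1, 7.58, 6.54 and 9.47 CPM, a change of -3.24 ± 0.41. The groups were far apart for SPRY1, with the highest treated library at 10.1 CPM. The ETS factor ETV4 changed by -1.31 ± 0.38 and the inhibitor SPRED1 by -1.35 ± 0.43. DUSP6, the ERK phosphatase, changed by 0.95 ± 0.39 and did not pass over 20 libraries but passed over 19 (adjusted p = 0.114 and 0.0437, edgeR), and SPRY4 changed by 0.61 ± 0.53 without passing in either fit. The calls of ETV4 and SPRED1 were fragile. ETV4 lost its call without non-invasive replicate 3 or 4 or serum-free replicate 2 (adjusted p up to 0.0766, edgeR), and SPRED1 without any 1 non-invasive replicate or without serum-free replicate 2 or 3 (up to 0.138).

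Immediate early transcription factors, which peak within an hour of stimulation and were sampled here after 72 h, were also divided. The list had 6 of 21 members higher and 4 lower, and without the shallow library 5 and 4. KLF6, a zinc-finger factor, rose by 2.00 ± 0.24 and the matricellular protein gene CCN1 by 2.69 ± 0.51, from 54.2, 53.7, 22.8 and 19.9 CPM to 207, 239, 227 and 304 CPM. MYC stood at 14.3, 17.4, 11.4 and 7.63 CPM and 40.9, 35.7, 25.8 and 39.9 CPM, a change of 1.48 ± 0.40 that lost its call without serum-free replicate 4 (adjusted p = 0.0541, edgeR). FOS stood at 387, 276, 464 and 267 CPM in serum-free libraries and at 101, 95.8, 37 and 48.5 CPM in non-invasive ones, a change of -2.30 ± 0.48. EGR1 changed by -1.61 ± 0.42, and its treated libraries ranged from 62 to 354 CPM, with replicates 1 and 2 above 3 and 4. Without non-invasive replicate 3 the EGR1 call was lost (adjusted p = 0.0519, edgeR). CCN2, the relative of CCN1, fell by 1.65 ± 0.50, and its call was lost in 6 of 8 fits that left out 1 library, those without non-invasive replicate 2, 3 or 4 or serum-free replicate 1, 3 or 4 (adjusted p up to 0.105, edgeR).

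IL1RL1, the receptor for the alarmin interleukin-33, went from near absence to a moderate level. Its counts gave 0.366, 0, 0 and 0 CPM in the serum-free libraries, 1 read in all, and 93.7, 115, 105 and 104 CPM in the non-invasive libraries. The ratio of the groups was 1130.0, with an exact 95% counting interval of 203 to 44650.0 that leaves out the spread between libraries. The 4 treated libraries differed little among themselves, although MALAT1 and mitochondrial shares divided them. The mean level was 283 CPM in the invasive cells, 16.5 CPM under cetuximab and 0.36 CPM under the MEK inhibitor. Of its list of interleukin-1 family genes, 4 of 7 tested members were higher and 0 lower, the same counts as without the shallow library. IL1A, an alarmin of epithelial cells, rose by 4.55 ± 1.01, from 1.47, 0.643, 0 and 0 CPM to 10.4, 11.5, 21.6 and 12 CPM. IL18 rose by 1.90 ± 0.52 and the shared co-receptor IL1RAP by 1.39 ± 0.44. The IL18 call was lost without serum-free replicate 1 or 4 (adjusted p up to 0.0573, edgeR) and the IL1RAP call without any 1 of the 8 libraries (up to 0.0996).

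NF-kB targets, cytokines, chemokines and the pathway's own inhibitors, were higher in 9 of 13 tested members and lower in 0, with a median of 2.53. The count was 10 of 14 over 19 libraries, 10 of 14 without non-invasive replicate 1, and 9 of 15 with non-invasive replicates 2 and 4 alone, where 7.06% and 4.36% of all genes were higher in the last 2 fits. NFKBIA, the inhibitor of NF-kB, stood at 193, 199, 182 and 216 CPM and 592, 932, 699.7 and 516 CPM, a change of 1.79 ± 0.25. TNFAIP3, a deubiquitinase that ends the signal, changed by 2.80 ± 0.47, and the caspase inhibitor gene BIRC3 by 2.64 ± 0.44. No treated library of these 3 genes overlapped the serum-free range. The chemokine CCL5 had 0 counts in the serum-free group and 45.9, 3.68, 0.385 and 6.99 CPM in the treated libraries, at least 47.1-fold higher over the groups against a floor of 3 counts, with replicate 1 far above the others. PTGS2, the inducible cyclooxygenase, stood at 54.6, 70, 55 and 60.2 CPM and 48.4, 85.1, 101 and 100.3 CPM and did not pass (adjusted p = 0.542, edgeR).

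Activin A is a TGF-beta family hormone made of 2 INHBA chains, and INHBA was among the most changed transcripts. Serum-free libraries had 0, 0, 0 and 0.424 CPM, 1 read in all, and non-invasive libraries 84, 19.3, 72.4 and 18.9 CPM. Replicates 1 and 3, the 2 libraries rich in MALAT1, were about 4 times as high as replicates 2 and 4 in INHBA, and the part of that split in the change was not tested. The ratio of the groups was 455, with a counting interval of 81.4 to 18000.0. With cetuximab the mean was 2.46 CPM and with the MEK inhibitor 2.87 CPM. FST, which encodes the activin antagonist follistatin, stood at 5.5, 5.14, 9.82 and 4.66 CPM and 4.09, 4.98, 15.4 and 23.4 CPM and did not pass (log2 change 0.93 ± 0.63, adjusted p = 0.374, edgeR). The activin, TGF-beta and BMP list holds ligands and receptors beside response genes. Of it 2 of 22 were higher, INHBA itself and TGFBR1, and 3 lower (3 and 5 over 19 libraries). TGFBR1, the type I TGF-beta receptor, rose by 2.05 ± 0.51. TGFBI, a secreted matrix protein named for its induction by TGF-beta, stood at 815, 998, 902 and 1011 CPM and 229.9, 209, 172 and 204 CPM, a change of -2.19 ± 0.23, and the BMP target ID1 changed by -2.49 ± 0.53 and the ligand BMP7 by -2.32 ± 0.40.

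Many genes that act at the cell-matrix boundary were higher. Laminin-332 is the basement membrane protein on which keratinocytes crawl, and it is bound by integrins in hemidesmosomes. Of that list 12 of 19 were higher and 0 lower (15 and 0 over 19 libraries), with a median of 1.05. LAMB3, its beta chain, changed by 0.98 ± 0.24. The collagen receptor chain ITGA2 rose by 1.63 ± 0.21, the fibronectin receptor chain ITGA5 by 1.94 ± 0.42, and the hemidesmosome genes COL17A1 and DST by 2.67 ± 0.38 and 2.04 ± 0.28. DST was lowest in replicate 1 among the treated libraries (603, 1082, 1844 and 1652 CPM) and every treated value exceeded the serum-free ones (300.4, 274, 329 and 357 CPM).

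Of the proteases and plasminogen activators, 5 of 16 were higher and 0 lower (7 of 17 higher over 19 libraries), with a median of 0.78. Without non-invasive replicate 1 the count was 3 of 17 and the median 0.34. It was 3 of 17 with non-invasive replicates 2 and 4 alone and 5 of 17 with replicates 1 and 3 alone. PLAUR, the urokinase receptor, stood at 15.4, 21.9, 32.2 and 17 CPM and 361, 370.2, 260.2 and 203 CPM, a change of 3.79 ± 0.50. MMP10, a stromelysin, had 0 counts in the serum-free group and 3.46, 2.38, 6.16 and 3.61 CPM in treated libraries, at least 13-fold higher. The groups did not overlap for either gene. PLAU, urokinase itself, had 91.2, 63.9, 89.2 and 24.2 CPM and 371, 272, 296 and 282 CPM, a change of 2.18 ± 0.71, and PLAT, tissue plasminogen activator, 11.4, 10.3, 5.11 and 20.3 CPM and 136, 18.9, 61.2 and 25.7 CPM, a change of 2.36 ± 0.61. In both the serum-free libraries varied several-fold, and replicate 2 of the treated group lay below serum-free replicate 4 in PLAT. PLAU lost its call in each of the 8 fits that left out 1 library (adjusted p up to 0.123, edgeR) and PLAT without non-invasive replicate 1 (adjusted p = 0.0873). The collagenase MMP1 did not pass, with 0, 0, 0 and 2.97 CPM and 4.4, 3.03, 3.85 and 0.225 CPM (adjusted p = 0.273, edgeR).

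Promoters of PLAUR and MMP10 hold the AP-1 letters TGANTCA, on which dimers of FOS and JUN family proteins bind. The motif was searched on both strands in the 250 bases before and 50 after each RefSeq start site, and 911 of 15842 protein-coding promoters held it (5.75%), as did 4 of 10 tested members of the protease list with a sequence. The 2 windows are shown because both genes were called and hold a match, which is given in capitals, and they come from RefSeq on GRCh38.p14, each written 5′ to 3′ on the gene's strand. The PLAUR window lies at chr19:43670324-43670380 and that of MMP10 at chr11:102780664-102780720, both on the minus strand upstream of the start site. Counted from the start site, with bases before it negative, the match begins at -186 in PLAUR and at -67 in MMP10.
PLAUR: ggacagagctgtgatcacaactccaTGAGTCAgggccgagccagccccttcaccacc
MMP10: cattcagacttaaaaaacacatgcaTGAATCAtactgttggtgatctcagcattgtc
A match describes these letters and shows no binding.

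Markers of partial epithelial-mesenchymal transition, a state in which carcinoma cells gain motility genes while keeping epithelial ones, were higher in 13 of 24 tested members and lower in 1, with a median of 1.96 (14 of 25 and 1 over 19 libraries). VIM, the mesenchymal intermediate filament vimentin, stood at 1.47, 0, 0 and 0 CPM in serum-free and 35.2, 52, 32.7 and 38.8 CPM in non-invasive libraries, a change of 6.61 ± 0.68. LGALS1, the lectin galectin-1, stood at 2.56, 3.53, 4.32 and 0.847 CPM and 201, 318, 198 and 385 CPM, a change of 6.57 ± 0.82. Both transcripts were low in all 4 serum-free libraries and detected in all 4 treated ones. In VIM the mean was 2.85 CPM under cetuximab and 1.04 CPM under the MEK inhibitor. ZEB1, a repressor of epithelial genes, had 2 reads in the serum-free group and 4.72, 2.6, 11.2 and 4.28 CPM in treated libraries, a ratio of 27.2 with a counting interval of 7.27 to 229, and it was the only 1 of 4 tested EMT transcription factors that passed. CDH1, E-cadherin, did not pass, with 247, 257, 242 and 176 CPM and 284, 335, 225 and 291 CPM and a change of 0.30 ± 0.21 (adjusted p = 0.401, edgeR). The 2 groups overlapped in CDH1. CDH2, the mesenchymal N-cadherin, was lower, with 2.56, 0, 6.29 and 4.24 CPM in serum-free libraries and 2 reads in the treated group. The serum-free to treated ratio was 22.8, with a counting interval of 5.82 to 196. Without non-invasive replicate 1 the CDH2 call was narrowly lost (adjusted p = 0.0518, edgeR).

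Actin and contractility genes were higher in 15 of 27 tested members and lower in 0 (19 and 0 over 19 libraries). Of them 14 of 27 were higher with replicates 2 and 4 alone and 6 of 28 with replicates 1 and 3 alone. FLNA, an actin cross-linker, rose by 2.01 ± 0.26, the bundler FSCN1 by 1.74 ± 0.24, non-muscle myosin MYH9 by 1.38 ± 0.19 and the membrane linker EZR by 1.43 ± 0.20. EZR stood at 465, 487, 423 and 454 CPM and 1222, 1171, 1312 and 1235 CPM. Its treated libraries lay within a narrow band well above the serum-free ones. Cytoplasmic actin ACTG1, annexin ANXA2, the calcium-binding S100A6 and the metallothionein MT2A were among the 8 transcripts that gained most in absolute CPM, with log2 changes of 1.31 ± 0.28, 2.91 ± 0.22, 1.91 ± 0.26 and 2.88 ± 0.28.

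Epithelial identity genes changed in different directions. Of the mucosal and basal keratins 3 of 4 tested were lower and 0 higher. KRT4, a keratin of the suprabasal oesophageal lining, stood at 225, 271, 236 and 277 CPM and 2.2, 1.08, 1.16 and 3.83 CPM, a change of -6.87 ± 0.48. Its partner KRT13 stood at 1178, 1152, 1077 and 1264 CPM and 489, 127, 102 and 152 CPM, a change of -2.43 ± 0.53, and without non-invasive replicate 1, its highest treated library, the change was -3.20 ± 0.52. KRT15, a basal keratin, fell by 2.03 ± 0.30 and KRT23 by 2.53 ± 0.42. The simple-epithelial pair KRT8 and KRT18 rose by 1.80 ± 0.21 and 0.96 ± 0.19 and the stress keratin KRT6A by 3.41 ± 0.62. KRT8 stood at 760.2, 528, 617 and 682 CPM and 2044, 2361, 1799 and 2774 CPM, without overlap. Genes of squamous differentiation, which build the cornified layer, were higher in 6 of 15 and lower in 0 (5 and 0 over 19 libraries, 3 higher without non-invasive replicate 1). Replicates 2 and 4 alone gave 3 of 15 higher and replicates 1 and 3 alone 5 of 15. The cornified envelope protein SPRR1B rose by 3.15 ± 0.38, from 37.4, 34.1, 57.8 and 57.2 CPM to 522, 377, 369 and 389 CPM, and the protease inhibitor CSTB by 2.02 ± 0.39. In FaDu 0 of 10 members were higher and 6 lower, beside 25.3% and 24.7% of all genes there. The Kyse30 effect lay above the FaDu effect in 4 of 16 and below it in 0, beside 9.48% and 6.20% of all genes.

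Of the cadherins and desmosome genes 4 of 16 were higher and 2 lower (6 and 3 over 19 libraries). The desmosomal plaque gene DSP rose by 1.26 ± 0.20, desmocollin DSC2 by 1.45 ± 0.24 and P-cadherin CDH3 by 0.95 ± 0.20, while alpha-catenin CTNNA1 fell by 0.79 ± 0.15. CTNNA1 stood at 588, 598, 584 and 613 CPM and 346, 343, 314 and 375 CPM, a small but even difference between all libraries of the 2 groups. Among tight junction genes 0 of 14 were higher and 1 lower, the scaffold gene TJP3, which changed by -1.86 ± 0.33 (1 and 2 over 19 libraries). Genes of the squamous lineage list, which holds JAG1 beside transcription factors, were higher in 4 of 25 and lower in 5 (7 and 5 over 19 libraries). SOX9, a progenitor factor, rose by 2.50 ± 0.35 and the Notch ligand JAG1 by 1.80 ± 0.31, and RUNX1 stood at 0, 0.643, 0 and 1.27 CPM and 8.49, 12.8, 20 and 8.12 CPM, a change of 4.61 ± 1.05. HEY1, a Notch target, fell from 49.8, 71.3, 42.8 and 41.5 CPM to 3.78, 4.55, 2.69 and 9.24 CPM, a change of -3.30 ± 0.42. ELF3, an epithelium-specific ETS factor, changed by -1.46 ± 0.24, SOX4 by -1.10 ± 0.23 and KLF5 by -0.90 ± 0.21. TP63, the master regulator of squamous cells, stood at 18.7, 4.82, 7.07 and 11.9 CPM and 8.49, 24.9, 10 and 18.3 CPM and did not pass (adjusted p = 0.574, edgeR). Some epithelial surface genes fell too. Of the membrane mucins and ion transport genes 4 of 13 were lower and 1 higher (5 and 1 over 19 libraries, 6 and 0 without non-invasive replicate 1). Replicates 2 and 4 alone gave 4 of 13 lower and replicates 1 and 3 alone 2 of 13. MUC16, a membrane mucin, changed by -1.97 ± 0.39, the proton pump subunit ATP6V1B1 by -3.84 ± 0.40 and the sodium channel subunit SCNN1A by -0.97 ± 0.24, and ATP12A, a potassium-transporting pump, had 24.2, 15.1, 21.2 and 17 CPM in the serum-free libraries and 0 counts in the treated group, at least 95.2-fold lower.

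Cell cycle genes separated by phase. Of 30 DNA replication genes 0 were higher and 1 was lower, with a median of -0.11 (2 and 3 over 19 libraries). At an unadjusted p under 0.05 2 were higher and 3 lower, and DESeq2 called 0 higher and 3 lower, beside 9.46% and 10.8% of all genes. MCM7, a subunit of the replicative helicase, stood at 137, 168, 117 and 155 CPM and 84.9, 71.5, 74.3 and 104 CPM, a change of -0.78 ± 0.19. MCM5 and the loading factor CDC6 changed by -0.78 ± 0.44 and 0.67 ± 0.47 and did not pass in either fit. Of 30 G2/M genes 13 were higher and 0 lower, with a median of 1.17 (22 and 0 over 19 libraries). With non-invasive replicates 2 and 4 alone 7 of 30 were higher, with a median of 1.41, and with replicates 1 and 3 alone 3 of 30, with a median of 0.80. CENPE, a kinetochore motor, stood at 7.33, 9.32, 13.4 and 8.47 CPM and 27.1, 38.8, 54.3 and 58.4 CPM, a change of 2.21 ± 0.32. BUB1B, of the spindle checkpoint, rose by 2.98 ± 0.54 from at most 2.75 CPM, and the proliferation marker MKI67 by 1.18 ± 0.27. MKI67 stood at 46.9, 44.7, 52.7 and 108 CPM and 84.3, 106, 189 and 190.0 CPM, and serum-free replicate 4 lay above treated replicates 1 and 2. TOP2A rose by 1.19 ± 0.34 and lost its call without non-invasive replicate 4 or serum-free replicate 2 or 3 (adjusted p up to 0.117, edgeR), and cyclin B1, CCNB1, changed by 0.93 ± 0.41 and did not pass over 20 libraries but passed over 19 (adjusted p = 0.145 and 0.00546, edgeR). CCND1, cyclin D1, changed by 0.34 ± 0.18 and did not pass.

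CDK inhibitors and p53 targets were higher in 7 of 22 tested members and lower in 0 (10 and 1 over 19 libraries). CDKN1A, the inhibitor p21, stood at 49.1, 46.6, 47.6 and 44.1 CPM and 312, 378, 289 and 388 CPM, a change of 2.87 ± 0.47. The nuclease gene AEN rose by 3.06 ± 0.57 and the death receptor TNFRSF10B by 2.04 ± 0.38. FAS, another death receptor, had 1 read in the serum-free group and 8.18, 4.12, 1.16 and 3.61 CPM in treated libraries, a ratio of 46.4 with a counting interval of 8.03 to 1860.0. With the MEK inhibitor CDKN1A had a mean of 153 CPM (SD 113), and with cetuximab 112 CPM (SD 73). These groups varied widely between libraries, and their difference from the non-invasive group was not tested.

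The same contrast in FaDu called 25.3% of 12131 genes higher and 24.7% lower, and the difference between the 2 effects was tested as an interaction over all 40 libraries, in which 9.48% of 12652 genes were above 0 and 6.20% below 0. DNA replication genes rose in FaDu in 29 of 30, and in 26 of 30 the Kyse30 effect was below the FaDu effect and in 0 above. For MCM7 the difference was -3.10 ± 0.29, for MCM5 -3.04 ± 0.54 and for CDC6 -3.63 ± 0.53. Every one of the 30 replication genes had a smaller estimate in Kyse30. G2/M genes rose in 29 of 30 in FaDu, and 20 of 30 had a smaller effect in Kyse30 and 0 a larger one, with a difference of -2.38 ± 0.46 for CCNB1, -2.51 ± 0.36 for MKI67 and -1.96 ± 0.42 for TOP2A. CDKN1A was higher in both lines, with a difference of -0.19 ± 0.65 that did not pass (adjusted p = 0.904, edgeR). In the ERK list the Kyse30 effect was below the FaDu effect in 10 of 25 members and above it in 1. That 1 member changed by -0.10 in Kyse30 and by -2.87 in FaDu. The difference was -4.50 ± 0.52 for DUSP6, -2.41 ± 0.43 for SPRED1, -2.80 ± 0.70 for HMGA2 and -7.09 ± 0.64 for ETV4. FST differed by -7.07 ± 0.97. SPRY4 had 0 counts in the FaDu serum-free group and was at least 42.2-fold higher there with EGF, taking 3 counts for the empty group as a whole. Its fold in Kyse30 was 1.55 by summed counts, so the log2 difference was -4.77 or further below 0 (adjusted p = 4.73e-05, edgeR). EGFR changed by -0.72 ± 0.18 in Kyse30 and by -1.36 ± 0.13 in FaDu. Its difference of 0.65 ± 0.23 narrowly did not pass (adjusted p = 0.0528, edgeR). No difference is given for IL1RL1, whose Kyse30 serum-free group held 1 read.

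**Figure D2:**
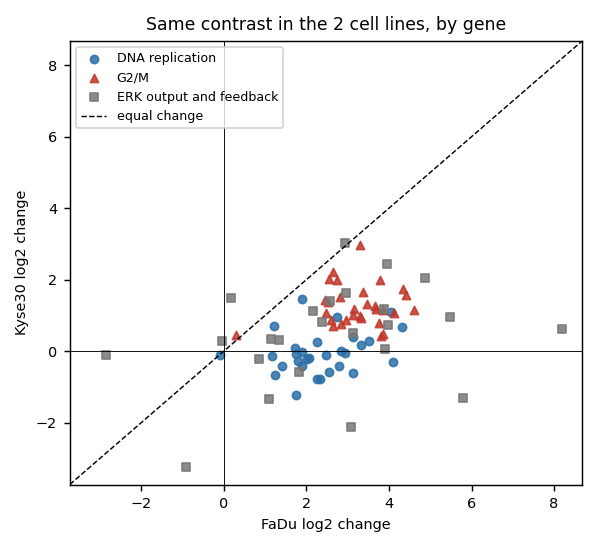
Log2 change of each gene of 3 lists in FaDu (x axis) and Kyse30 (y axis), non-invasive EGF-treated cells against serum-free spheroids, with a dashed line of equal change. All 30 points of the replication list and 29 of the 30 in G2/M had a smaller change in Kyse30, and the replication points lie around 0 on the y axis.

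Among the 974 genes called in both lines, 95 had opposite signs, and of those the 6 with the smallest interaction p on each side are named. Their differences were selected in this way and are given as a description. Higher in Kyse30 and lower in FaDu were EGLN3, an oxygen-sensing prolyl hydroxylase, with a difference of 6.68 ± 0.77, the receptor GPRC5B at 7.39 ± 0.74, the surface protein LY6D at 6.98 ± 0.73, the actin-associated PALLD at 3.32 ± 0.39, ITPRIPL2 at 2.12 ± 0.22 and the long non-coding RNA MIR193BHG at 4.39 ± 0.49. EGLN3 stood at 1.47, 0.964, 1.57 and 1.27 CPM and 13.5, 77.8, 28.5 and 36.1 CPM in Kyse30. Lower in Kyse30 and higher in FaDu were ETV4 and MCM7, as above, with ARTN at -4.78 ± 0.40, DNAJC10 at -2.24 ± 0.22, ALDH3A2 at -2.33 ± 0.26 and COL12A1 at -6.41 ± 0.73. ARTN, the growth factor artemin, stood at 351, 367, 371 and 299.6 CPM in serum-free and 36.2, 18.4, 34.3 and 24.1 CPM in non-invasive Kyse30 libraries, a change of -3.63 ± 0.35 without overlap. The desmosome genes DSP and DSC2, lower in FaDu, differed by 2.12 ± 0.26 and 2.12 ± 0.28, CCN1 by 3.98 ± 0.76, and KRT13, which fell further in FaDu, by 4.97 ± 0.94. Besides ETV4, 3 of these Kyse30 calls were fragile. GPRC5B lost its call without non-invasive replicate 1 or 4 or serum-free replicate 3 or 4, LY6D without non-invasive replicate 1 or 4 or serum-free replicate 2, 3 or 4, and MIR193BHG without non-invasive replicate 3 or 4 or any serum-free replicate (adjusted p up to 0.0657, 0.077 and 0.409, edgeR). MIR193BHG changed by 0.53 without non-invasive replicate 3, its highest library.

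**Figure D3:**
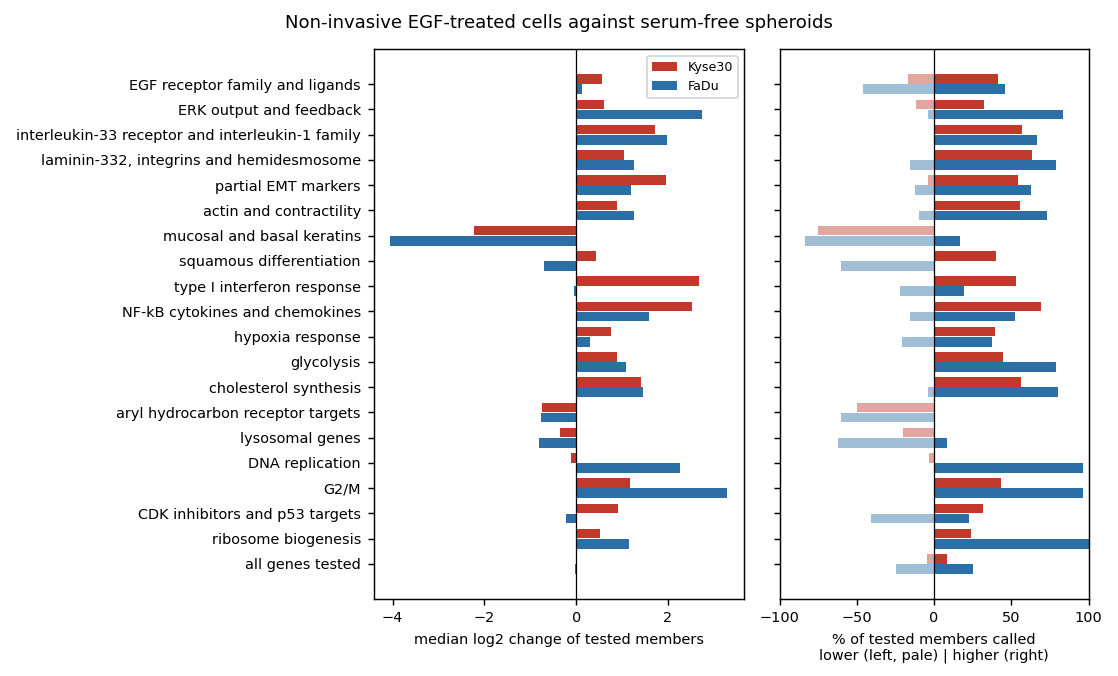
Left, median log2 change of the tested members of 19 gene lists and of all genes tested in Kyse30 (red) and FaDu (blue); right, the percent of tested members called higher (to the right) and lower (to the left, pale). The replication list has a median of -0.11 in Kyse30 and 2.26 in FaDu, and the type I interferon list 2.68 and -0.04. Without non-invasive replicate 1 the Kyse30 median of the interferon list was 1.04. The 2 lines were fitted separately.

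Sterol and lipid synthesis genes were higher. Of the cholesterol synthesis genes 14 of 25 were higher and 0 lower, with a median of 1.42 (20 and 0 over 19 libraries). SQLE, an epoxidase of the pathway, stood at 19.4, 32.5, 18.9 and 30.1 CPM and 80.2, 146, 173 and 179 CPM. It rose by 2.52 ± 0.51, and the enzymes DHCR7 and HMGCS1 of the same pathway by 1.91 ± 0.30 and 1.93 ± 0.31. Of the fatty acid genes 4 of 13 were higher and 0 lower (8 and 0). The desaturase SCD stood at 263, 295, 244 and 239 CPM and 1096, 2221, 1803 and 2696 CPM, a change of 2.91 ± 0.34, and fatty acid synthase FASN rose by 1.93 ± 0.22.

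Glycolysis genes were higher in 8 of 18 and lower in 0 (12 and 1 over 19 libraries) and hypoxia response genes in 9 of 23 and 0 (11 and 2). In glycolysis 8 of 18 were higher with non-invasive replicates 2 and 4 alone, with a median of 1.17, and 4 of 18 with replicates 1 and 3 alone, with a median of 0.45. For the hypoxia list the 2 medians were 1.14 and 0.43. PKM, pyruvate kinase, stood at 141, 108, 112 and 148 CPM and 563, 965, 714 and 1068 CPM, a change of 2.70 ± 0.21. LDHA and ENO1 rose by 1.93 ± 0.34 and 1.69 ± 0.25 and GAPDH by 1.25 ± 0.23. Replicates 2 and 4 were above replicates 1 and 3 in PKM, as they were in ENO1 (1187, 2422, 1437 and 2379 CPM). NDRG1, a hypoxia-induced gene, rose by 2.40 ± 0.36, the mitophagy receptor BNIP3 by 2.46 ± 0.40, the disulfide oxidase ERO1A by 1.83 ± 0.24, the angiogenic factor VEGFA by 1.65 ± 0.29 and EGLN3 by 4.87 ± 0.68. The glucose transporter SLC2A1 had the opposite sign, 289, 229, 254 and 229.7 CPM and 143, 146, 126 and 165 CPM. It changed by -0.79 ± 0.47 and did not pass over 20 libraries but passed over 19 (adjusted p = 0.307 and 0.00138, edgeR).

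Targets of the aryl hydrocarbon receptor, a sensor of aromatic compounds that induces enzymes which oxidise them, were lower in 5 of 10 tested members and higher in 0, the same counts as without the shallow library. Replicates 2 and 4 alone gave 3 of 10 lower and replicates 1 and 3 alone 5 of 10. CYP1A1 stood at 1126, 1229, 1127 and 1188 CPM in serum-free libraries and at 33.3, 15, 11.9 and 17.4 CPM in non-invasive ones, a change of -5.91 ± 0.41. CYP1B1 stood at 2205, 2423, 2196 and 2500.0 CPM and 417, 736, 665 and 877 CPM, a change of -1.79 ± 0.34. No library of one group reached the range of the other. The means of CYP1A1 were 5.44 CPM in invasive cells, 89.6 CPM under cetuximab and 268 CPM under the MEK inhibitor. ALDH3A1, an aldehyde dehydrogenase, fell by 3.19 ± 0.47 and the amino acid transporter SLC7A5 by 1.06 ± 0.25. Of the 3 called members with a promoter sequence, all held GCGTG, the core to which the receptor binds. But so did 44.1% of 15842 protein-coding promoters, searched on both strands, and 51.8% of the 8983 promoters of genes tested in Kyse30. The CYP1A1 window at chr15:74725556-74725610, minus strand, GRCh38.p14 from RefSeq, is shown because this gene fell most of the list, with the core in capitals, beginning at -57 counted from the start site.
CYP1A1: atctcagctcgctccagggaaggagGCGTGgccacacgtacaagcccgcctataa

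Lysosomal genes were lower in 5 of 25 and higher in 0 (7 and 1 over 19 libraries, 4 of 25 lower with replicates 2 and 4 alone and 2 of 25 with replicates 1 and 3 alone). The cathepsins CTSD and CTSB fell by 1.34 ± 0.20 and 0.91 ± 0.23. CTSD stood at 809, 777, 839.8 and 921 CPM and 370.2, 356, 306 and 287 CPM, without overlap. Among oxidative stress targets of NRF2 1 of 20 was higher and 4 lower (3 and 5, and 2 lower without non-invasive replicate 1), with the iron store FTL at -1.06 ± 0.20 and the pentose enzyme TKT at -0.98 ± 0.23. PTGES, which makes prostaglandin E, fell by 1.50 ± 0.33, and with FTL and ELF3 it was among the 8 largest losses in absolute CPM. Among mitochondrially encoded transcripts 3 of 15 were lower and 0 higher. Over 20 libraries the called ones were MT-RNR1, MT-ND3 and MT-CYB, at -0.86 ± 0.27, -1.13 ± 0.28 and -0.99 ± 0.32. Without the shallow library 3 were lower as well, but MT-CYB was not among them (adjusted p = 0.0591, edgeR). With non-invasive replicates 2 and 4 alone 12 of 15 were lower, and with replicates 1 and 3 alone 0 were, beside 2.34% and 1.90% of all genes. MT-RNR1 lost its call without non-invasive replicate 2 or 4 or serum-free replicate 2, 3 or 4 and MT-CYB without any 1 library but non-invasive replicate 3, with adjusted p up to 0.122 and 0.146 (edgeR). MALAT1 and NEAT1, which stay in the nucleus, changed by 2.21 ± 0.45 and 1.72 ± 0.57, and with non-invasive replicates 2 and 4 alone 0 of 2 listed nuclear RNAs were higher and with replicates 1 and 3 alone 2 of 2, beside 4.47% of all genes in the last fit. NEAT1 lost its call without non-invasive replicate 1 or 3 or any 1 serum-free replicate (adjusted p up to 0.32, edgeR).

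Part of the protein synthesis and folding machinery was higher. Of the ribosome biogenesis genes 6 of 25 were higher and 0 lower (11 and 0 over 19 libraries), and in FaDu 25 of 25 were higher. The Kyse30 effect was below the FaDu effect in 8 of 25 of them and above it in 0, beside 6.20% and 9.48% of all genes. NOP56, which methylates ribosomal RNA with its partners, changed by 1.36 ± 0.22, and the assembly factor BOP1 changed by 1.45 ± 0.30. Among aminoacyl-tRNA synthetases 1 of 20 was higher and 0 lower (3 and 2 over 19 libraries). These higher counts did not exceed the share of all genes higher, 8.10% over 20 libraries and 15.9% over 19. The called one was the glycyl-tRNA synthetase GARS1 at 1.14 ± 0.27. In FaDu 17 of 20 were higher, beside 25.3% of all genes there. Of these synthetases 4 of 20 had a smaller effect in Kyse30 by the test of the difference, beside 6.20% of all genes. Heat shock proteins and chaperonins were higher in 6 of 23 and lower in 0 (13 and 0 over 19 libraries). The count was 3 of 23 for replicates 2 and 4 alone and 5 of 23 for replicates 1 and 3 alone. HSPA5, the chaperone of the endoplasmic reticulum, stood at 592, 658, 572 and 673 CPM and 1784, 1415, 1195 and 1615 CPM, a change of 1.27 ± 0.19, and the chaperonin subunit CCT8 changed by 1.04 ± 0.18. All 4 treated libraries exceeded the serum-free range in HSPA5 and in NOP56.

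ATF4 stress response genes were higher in 3 of 20 and lower in 2 (5 and 2 over 19 libraries), with the stress sensor SESN2 at 1.83 ± 0.37 and the mitochondrial folate enzyme MTHFD2 at 1.41 ± 0.35. Polyamine genes were higher in 2 of 12 and lower in 0 (6 and 0), among them spermine synthase SMS at 1.32 ± 0.23. YAP and TEAD targets were higher in 4 of 14 and lower in 2 (5 and 2). The nucleotidase NT5E rose by 1.46 ± 0.24, and AMOTL1, a scaffold that binds YAP, by 1.13 ± 0.20. Eph receptors and ephrins had 1 higher and 1 lower of 14 (1 and 2). The higher one was EPHB6, a receptor without kinase activity, at 2.90 ± 0.84, which lost its call without non-invasive replicate 2 or 3 or serum-free replicate 1 or 2 (adjusted p up to 0.0693, edgeR).

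Type I interferon genes, which cells switch on when they sense viral nucleic acid or interferon, were higher in 18 of 34 tested members and lower in 0, with a median of 2.68 that stayed at 2.68 with the members at 0 counts set to their bound. Much of the size rested on non-invasive replicate 1. Without it 11 of 34 were higher and the median was 1.04. With non-invasive replicates 2 and 4 alone 7 of 35 were higher, with a median of 1.02, and with replicates 1 and 3 alone 21 of 35, with a median of 3.46. Replicate 3, which held the most MALAT1, was not high in interferon genes. IFIT1, which binds foreign RNA ends, stood at 0.366, 0, 0 and 0 CPM in serum-free libraries, 1 read in all, and at 224, 6.72, 11.2 and 22.5 CPM in non-invasive ones, a ratio of 632 with a counting interval of 113 to 24990.0. ISG15, a ubiquitin-like modifier, stood at 31.1, 18.6, 16.5 and 44.5 CPM and 638, 75.8, 58.9 and 77.3 CPM. For both, replicate 1 was many times the other treated libraries, and those still lay above every serum-free library.

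A core of these genes was called with and without replicate 1. IFIT2 changed by 4.59 ± 0.54 and by 3.47 ± 0.37 without it, IFIT3 by 4.57 ± 0.72 and 2.83 ± 0.45, the RNA sensor RIGI by 4.08 ± 0.64 and 2.95 ± 0.51, the helicase-like DDX60L by 3.93 ± 0.63 and 2.79 ± 0.51, and ISG15 by 2.94 ± 0.63 and 1.36 ± 0.44. IFIT2 stood at 13.2, 10.9, 13.4 and 10.6 CPM and 759, 119, 116 and 167 CPM. The treated libraries other than replicate 1 were thus about 10 times the serum-free ones in IFIT2. XAF1, a pro-apoptotic gene, and IFI44L had 0 counts in the serum-free group and 102, 2.82, 2.31 and 3.16 and 89.7, 0.867, 1.16 and 0.225 CPM in the treated libraries, at least 86-fold and at least 70.8-fold higher over the group. Neither passed without replicate 1 (adjusted p = 0.0993 and 0.192, edgeR). OAS1, an activator of RNase L, changed sign. It stood at 76.2, 86.1, 56.2 and 89 CPM and 305, 38.8, 37.7 and 40.6 CPM, a change of 0.45 ± 0.51 that became -0.98 ± 0.37 without replicate 1, and it passed in neither fit.

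Replicate 1 was also the highest library in the antigen presentation genes named here. Of the MHC class I list 3 of 19 were higher and 0 lower (5 and 2 over 19 libraries, 2 and 1 without replicate 1). The heavy chain gene HLA-B and the light chain B2M changed by 0.58 ± 0.28 and 0.45 ± 0.26 and did not pass, and without replicate 1 their changes were 0.07 ± 0.23 and -0.04 ± 0.21. Reads of HLA genes can be shared with their near-identical relatives. The peptide transporter TAP1 and the interferon-gamma effector GBP1 changed by 1.64 ± 0.42 and 4.28 ± 1.04 and did not pass without replicate 1 (adjusted p = 0.0885 and 0.104, edgeR). In the interferon-gamma effector list 1 of 10 was higher, and 0 without replicate 1, beside 8.10% and 7.06% of all genes. Its median was 0.67, and 0.23 without replicate 1. In the list of sensors and receptors 3 of 17 were higher, and 0 without replicate 1. There the median was 0.26, and 0.22 without it, so those calls were lost with little change in the median. With non-invasive replicates 2 and 4 alone 1 of 19 MHC class I genes was higher, and with replicates 1 and 3 alone 3 of 19.

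**Figure D4:**
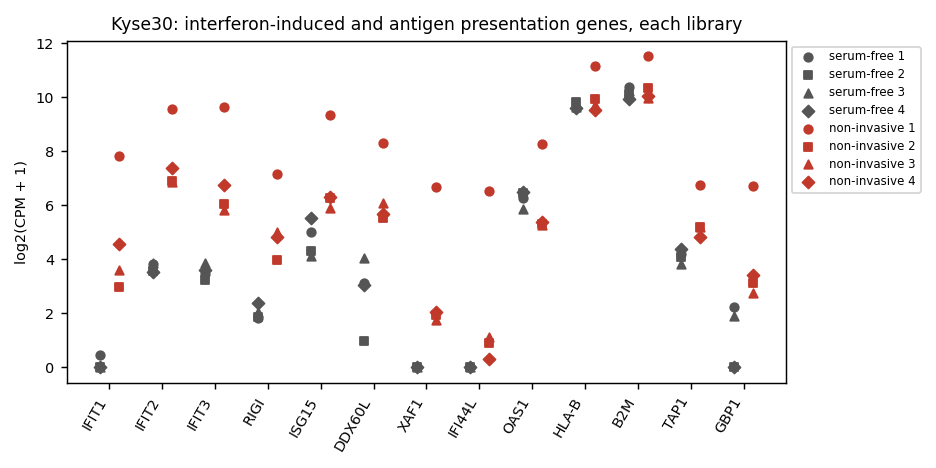
Levels of 13 interferon-induced and antigen presentation genes in each of the 8 Kyse30 libraries, on a log2(CPM + 1) axis, with serum-free libraries in grey and non-invasive ones in red. The red circle, non-invasive replicate 1, is the highest of the 8 libraries in all 13 genes, and in OAS1 the other 3 red symbols lie below the grey ones.

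The interferon-stimulated response element, to which interferon-activated factors bind, was searched as GAAANNGAAA on both strands of the same promoter windows. It occurred in 503 of 15842 protein-coding promoters (3.18%), in 19 of 28 tested interferon list members with a sequence and in 11 of the 14 called ones. The list was chosen for genes that interferon induces, so the motif is no independent evidence. Windows around the match are shown for 4 called members as examples, with the element in capitals, in IFIT1 and IFIT3 as its reverse complement. They lie at chr10:89392482-89392554 for IFIT1, chr10:89327816-89327909 for IFIT3 and chr1:1013359-1013424 for ISG15, on the plus strand, and at chr4:168480508-168480597 for DDX60L on the minus strand, all upstream of the start site in GRCh38.p14 from RefSeq. Each of the 4 holds 2 matches, and those of ISG15 overlap by 4 bases and form 1 stretch of capitals.
IFIT1: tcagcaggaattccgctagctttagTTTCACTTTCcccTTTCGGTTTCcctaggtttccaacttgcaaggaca
IFIT3: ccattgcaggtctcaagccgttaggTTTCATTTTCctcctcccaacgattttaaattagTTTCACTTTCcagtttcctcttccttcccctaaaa
ISG15: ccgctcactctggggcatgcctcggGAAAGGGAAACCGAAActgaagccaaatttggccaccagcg
DDX60L: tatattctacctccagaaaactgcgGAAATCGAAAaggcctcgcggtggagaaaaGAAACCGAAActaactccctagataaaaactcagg
A match gives the letters present and not the binding of a factor.

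Transcripts with the largest falls included cell-surface and adhesion genes. EPHA7, an ephrin receptor, stood at 56.4, 50.1, 82.1 and 67 CPM in the serum-free libraries and had 2 reads in the treated group, a serum-free to treated ratio of 467 with a counting interval of 129 to 3865. Its mean was 31 CPM under cetuximab and 32.6 CPM under the MEK inhibitor. PPP2R2B, a phosphatase subunit, changed by -5.99 ± 0.64, the atypical cadherin FAT3 by -5.46 ± 0.43, the matrix protein gene FREM2 by -5.10 ± 0.56, the neuronal adhesion gene SLITRK5 by -4.71 ± 0.50, the focal adhesion linker TNS1 by -4.65 ± 0.52 and placental alkaline phosphatase ALPP by -4.64 ± 0.59. FAT3 stood at 37.4, 41.4, 42.1 and 51.7 CPM and 0.629, 1.3, 1.16 and 0.676 CPM. Each of these 7 genes was separate in all 8 libraries. ALPP shares sequence with other alkaline phosphatase genes, so its reads may be split between them. On the other side, MGLL, a lipase of endocannabinoids, rose by 6.09 ± 0.84, and MYH16, a myosin heavy chain gene, and SLC1A6, a glutamate transporter, had 1 and 3 reads in the serum-free group. MYH16 stood at 39, 22.3, 32.3 and 19.4 CPM and SLC1A6 at 16, 81.7, 47 and 56.1 CPM in the treated libraries, ratios of 288 (51.3 to 11390.0) and 193 (65.8 to 938, counting intervals). With cetuximab and with the MEK inhibitor the means of MGLL were 2.99 and 2.88 CPM and those of SLC1A6 32.6 and 4.61 CPM.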

How the data were processed

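RNA was read by QuantSeq 3′ sequencing, which makes about 1 fragment per transcript, so counts do not grow with transcript length. The authors deposited 1 table of raw read counts per gene, 12655 genes in 40 libraries, with reads aligned by STAR and counted by HTSeq on GRCh38/hg38, per the submitters' processing notes; their versions and strand settings are not stated there. Molecular identifiers are not named, so counting intervals and floors (3 counts over a group, 95% exact intervals) cover counting error only.

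Counts were scaled to CPM with TMM factors and tested in R 4.3.3 with edgeR 4.0.16 (genes kept by filterByExpr, robust quasi-likelihood fit, Benjamini-Hochberg adjustment over all genes tested, called at an adjusted p under 0.05). All 20 Kyse30 libraries entered one fit. FaDu was fitted alike, and the difference between the lines over all 40 libraries. CPM were scaled within each line, so levels are not compared between lines. SEs follow from the F statistic. DESeq2 1.42.0 and limma 3.58.1 served as alternatives. The chi-square per degree of freedom between replicates ran from 7.18 to 67.4, so none is a copy of another.

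The named genes came from a rule: a panel, the 10 largest fold changes each way, the 8 largest CPM differences each way, up to 4 called members of a list each way by p, and 6 genes each way that went in opposite directions in FaDu. Not every gene of that rule is described. The comparison, the 46 lists and the panel were chosen with earlier results of these data known. Same-numbered replicates did not pair (correlations of their deviations from -0.0164 to 0.0431). Promoters were matched to RefSeq by symbol, 10 of 16 tested protease members, 28 of 34 tested interferon members and 8 of 10 tested aryl hydrocarbon receptor members.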

Additional observations from a re-analysis of the deposited data

Results flagged for a closer look

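Of 344 groups of 4 Kyse30 libraries for 172 of the genes named, 28 had 1 outlying library by Dixon's test. There the gap to the nearest other library was large for the group's range. Chance gives about 1 in 20 for independent groups that were not chosen by their values. These genes were chosen in part with their values known, so the counts are no test of an excess. In 16 of the 28 the library was non-invasive replicate 1 and the highest. Its levels were 224.0 CPM for IFIT1, 758.7 CPM for IFIT2, 784.2 CPM for IFIT3, 140.3 CPM for RIGI, 311.1 CPM for DDX60L, 637.6 CPM for ISG15, 101.6 CPM for XAF1 and 89.65 CPM for IFI44L. Among OAS1 and antigen presentation genes they were 304.5 CPM for OAS1, 2269 CPM for HLA-B, 2916 CPM for B2M, 106.3 CPM for TAP1 and 103.8 CPM for GBP1. The other high values of replicate 1 were 45.93 CPM for CCL5, 488.8 CPM for KRT13 and 521.5 CPM for SPRR1B, and it was the lowest library in COL17A1 at 477.2 CPM. In the treated group replicate 2 stood apart in HBEGF at 148.6 CPM, and replicate 3 in IL1A at 21.55 CPM and in MIR193BHG at 64.66 CPM. In the serum-free group replicate 1 stood apart in S100A6 at 1615 CPM, replicate 2 in DSC2 at 77.42 CPM, in FREM2 at 76.78 CPM and, as the lowest, in SMS at 68.11 CPM. Replicate 3 did so in HMGA2 at 67.2 CPM, in FST at 9.824 CPM and in NEAT1 at 1567 CPM, and replicate 4 in MKI67 at 107.6 CPM.

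The effect in Kyse30 differed from that in FaDu by edgeR's interaction test in 26 of 28 genes given, where 9.48% of all genes tested lay above 0 and 6.20% below. Of these, 12 were chosen for opposite signs in the 2 lines and a small interaction p, so that they had to pass, and 14 of the other 16 passed; those 16 were chosen with earlier results known. Kyse30 minus FaDu was below 0 for HMGA2 (-2.804), SPRED1 (-2.413), ETV4 (-7.086), DUSP6 (-4.498) and FST (-7.071) on the log2 scale, and for SPRY4 it was -4.771 or further below 0, a bound because the FaDu serum-free group had 0 counts. Cell cycle genes below 0 were MKI67 (-2.507), TOP2A (-1.963), CCNB1 (-2.383), MCM7 (-3.1), MCM5 (-3.043) and CDC6 (-3.633). ARTN (-4.775), DNAJC10 (-2.237), ALDH3A2 (-2.328) and COL12A1 (-6.405) were below 0 as well. Above 0 were CCN1 (3.984), KRT13 (4.966), DSP (2.116), DSC2 (2.12), EGLN3 (6.678), GPRC5B (7.393), LY6D (6.981), ITPRIPL2 (2.116), MIR193BHG (4.386) and PALLD (3.318).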

How the results depend on the processing

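Against 970 higher and 570 lower genes, leaving out the shallow invasive library gave 1915 and 1441, all 40 libraries 1660 and 1017, and non-invasive replicates 2 and 4 alone 530 and 284 or replicates 1 and 3 alone 544 and 231. DESeq2 called 1133 higher and 1297 lower, so that 46.6% of calls were higher against 63%, and the fit of the 8 libraries alone 1294 and 1109. Leaving out 1 of the 8 libraries gave 683 to 852 higher and 347 to 492 lower genes, the lowest of both without non-invasive replicate 4. Against 1199 genes above 0 and 784 below 0 in the test between lines, the 16 libraries of the 4 groups gave 1804 and 1398, 39 libraries 1374 below 0, and non-invasive replicates 2 and 4 alone 773 above 0. With the replicate number as a block the counts were 818 and 476, and 1096 and 711 between lines; every pair's correlation was under 0.1, so numbers do not pair the samples. Among 155 of the called genes named, 122 to 154 were called under each alternative that tested them, fewest with replicates 2 and 4 alone. Changes that turned sign were OAS1 at -0.3179 with limma-voom, -0.9768 without non-invasive replicate 1, -0.9426 with replicates 2 and 4 alone and -0.00298 with the replicate block, and over fits that left out 1 library from -0.9768 to 0.7293, B2M at -0.03596 without non-invasive replicate 1 and up to 0.6198 without another, NEAT1 at -0.171 with replicates 2 and 4 alone and TP63 at -0.2254 with replicates 1 and 3 alone. Fewer libraries are part of the construction of the reduced fits, and otherwise the cause was not tested. Low counts limit genes under about 1 CPM, where 1 library holds a few reads.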
